A study of Mus musculus with 6 samples.

Results

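Forkhead (FOX) genes encode transcription factors that bind DNA through a shared winged-helix domain, the forkhead domain. Their transcripts were examined in immortalized embryonic fibroblasts (MEFs) of the mouse, either wild-type (WT) or Yme1l-/-. The family was taken as every locus of the count table with a Fox symbol made of a letter from a to s and a number, with Foxm1 left out. This rule used names only and gave 40 of the 51499 loci. YME1L is a protease that sits in the inner mitochondrial membrane and is driven by ATP. The WT cells carried floxed Yme1l alleles (Yme1l fl/fl in the labels) and the knockout cells were Yme1l-/-. Both descend from floxed fibroblasts that carry SV40 large T antigen and received Cre, and each line was grown from a clone whose genotype was then determined. Poly(A)-selected RNA of 3 numbered cultures per genotype was sequenced. The number of clones behind the cultures of a genotype is not given in the sources used here, so a difference between genotypes and a difference between clones cannot be told apart.

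Forkhead factors are divided into lettered subfamilies. FOXO factors activate genes of metabolism, stress resistance and cell cycle arrest and are kept out of the nucleus when insulin or growth factors activate the kinase AKT. FOXK factors are broadly expressed repressors of autophagy genes. FOXC, FOXD and FOXF factors act in the mesenchyme of the embryo, the source of fibroblasts, whereas FOXA, FOXN1 and FOXP3 are known for their roles in endoderm, thymic epithelium and regulatory T cells.

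The libraries held between 33180867 and 49351107 counted fragments. Yme1l1, the targeted gene, had 191.1, 192.2 and 182.8 CPM in WT and 37.9, 38.9 and 40.6 CPM in Yme1l-/-, where CPM is the count of a locus divided by the scaled library size in megacounts, so all Yme1l-/- cultures lay below all WT cultures. The 11 fibroblast markers summed to 6486 to 6694 CPM in WT and 4523 to 4772 CPM in Yme1l-/-. Of the 9 tested, 7 were lower in Yme1l-/- and Col1a1 was higher, and Thy1 had 4 to 6 fragments per WT library and 0 in each Yme1l-/- library. WT replicate 2 stood apart in Col3a1, with 9860 fragments against 2858 and 2974 in the other WT libraries. It was also above them in Dcn (257 against 52 and 51), Lum (11 against 2 and 1) and Pdgfra (596 against 329 and 405). In Col1a1, Col1a2, Vim and Fbn1 it was the lowest WT library. Every forkhead call below was also made without WT replicate 2. Summed over the 5 epithelial markers, WT cultures held 142.0 to 159.2 CPM and Yme1l-/- cultures 2.75 to 3.69 CPM. The 4 endothelial markers summed to 0.888 to 1.44 CPM in WT and 1.67 to 2.00 CPM in Yme1l-/-, and Kdr, the 1 tested, was called higher. The 4 blood markers summed to 1.80 to 1.99 CPM in WT and 3.72 to 4.495 CPM in Yme1l-/-. Of these, Cd68 was the 1 tested and was called higher, and Adgre1 had no fragment. The part of these markers in the forkhead values was not tested. In RNA from whole cultures, fewer cells of a type and less RNA per cell cannot be told apart.

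Most forkhead transcripts that differed between the genotypes were lower in Yme1l-/- cells. Of the 40 loci, 31 had a fragment in some library and 23 passed the filter on low counts and were tested. Among these, 11 fell, 2 rose and 10 did not pass an adjusted p of 0.05 (edgeR's quasi-likelihood test, Benjamini-Hochberg over all 13867 loci tested). The lower calls described here were Foxq1, Foxa2, Foxo1, Foxn1, Foxn3, Foxd1, Foxc1, Foxk2, Foxn2 and Foxk1, and the higher calls were Foxp2 and Foxj2. Over all loci, 67.7% were called, 34.1% lower and 33.6% higher in Yme1l-/-, against 56.5%, 47.8% and 8.70% of the tested forkheads. The family was thus called no more often than other loci. In 14 of the 23 tested forkheads the cultures of the genotypes did not overlap, 12 lower and 2 higher in Yme1l-/-, and the same held for 71.9% of all loci, 36.0% lower and 35.9% higher. The median log2 fold change (Yme1l-/- over WT) was -0.23 for the tested forkheads and -0.0041 for all loci, and the median size of the change, whatever its sign, was 0.27 and 0.38. A fall of at least 2-fold was called for 5 of the 23 tested forkheads, beside 8.63% of all loci. A rise of that size was called for 1 of the 23, beside 9.1% of all loci. Of these, 3 falls and the rise were at loci under 10 CPM in both genotypes.

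**Figure D1:**
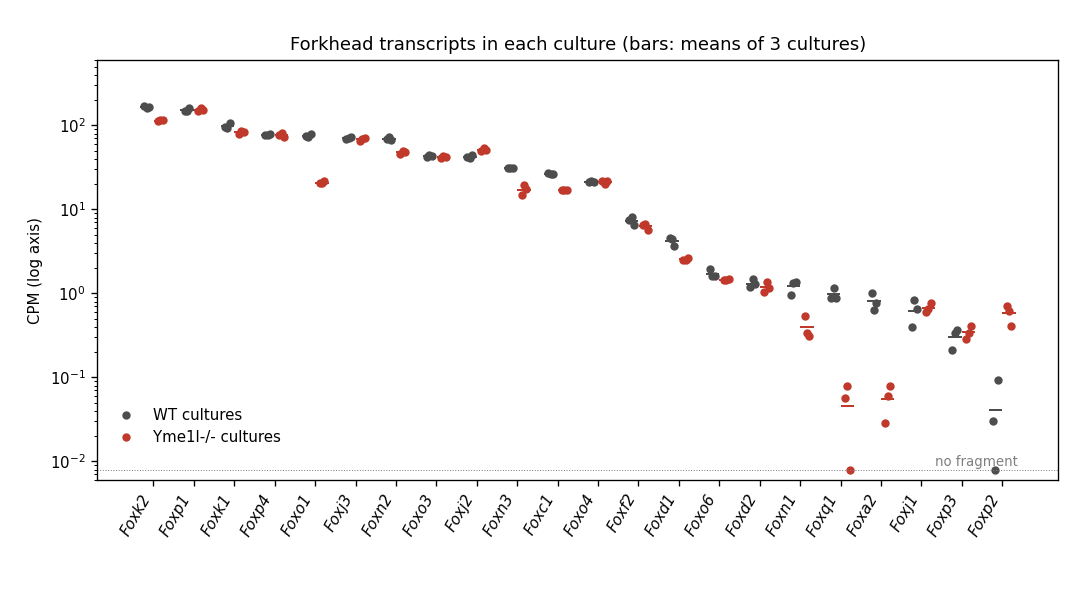
Level of 22 tested forkhead loci in CPM (log axis) in the 3 WT and the 3 Yme1l-/- cultures, with points for cultures and bars for means, and values without a fragment on the dotted line. Foxk2 is at 162.3 to 169.0 CPM in WT, and the Yme1l-/- cultures of Foxo1, Foxn1, Foxq1 and Foxa2 lie well below those of WT, whereas Foxp2 lies above.

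Of the FOXO subfamily, Foxo1 fell and the other members were not called. Foxo1, the AKT-controlled activator of gluconeogenic and stress genes, had 74.4, 73.5 and 78.3 CPM in WT and 20.4, 20.6 and 21.5 CPM in Yme1l-/-. All Yme1l-/- cultures were far below the WT cultures, at 27.6% of the WT mean. This gave a log2 fold change of -1.86 ± 0.05 (SE; edgeR adjusted p 1.4e-10). Foxo3, its widely expressed relative, had 42.0, 44.5 and 43.4 CPM in WT and 40.7, 42.6 and 42.6 CPM in Yme1l-/-, with overlapping cultures and a log2 fold change of -0.04 (95% interval -0.15 to 0.06). Foxo4 was at 21.3 ± 0.202 and 21.1 ± 1.12 CPM (SD, n = 3), with an interval of -0.15 to 0.12. Foxo6, best known in brain, had only 50 to 76 fragments per library, and its log2 fold change was -0.23 (interval -0.62 to 0.15). Its cultures did not overlap, at 1.96, 1.59 and 1.59 CPM in WT and 1.43, 1.45 and 1.49 CPM in Yme1l-/-. With chromosome medians removed (0.30 for chromosome 10 and -0.21 for X), Foxo3 was called lower, at -0.34, and Foxo4 higher, at 0.19, while Foxo1 was still called lower.

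The 4 FOXO transcripts were then set on one scale, CPM per kilobase of merged exons. Their sum was 21.2 ± 0.252 in WT and 14.6 ± 0.370 in Yme1l-/- (SD, n = 3). Foxo1 made up 40.97, 40.1 and 42.1% of this sum in the WT cultures and 16.3, 16.7 and 16.6% in the Yme1l-/- cultures. In WT, Foxo1 was the highest of the 4 by this measure, at 8.70 ± 0.295, ahead of Foxo4 (6.11 ± 0.0579) and Foxo3 (5.72 ± 0.168). In Yme1l-/- it stood below both, at 2.40 ± 0.0691 against 6.05 ± 0.322 for Foxo4 and 5.55 ± 0.141 for Foxo3 (all CPM per kilobase, SD, n = 3).

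The upstream sequences of 2 pairs of forkheads are shown: Foxo1 with Foxo3, and Foxc1 with its neighbour Foxf2. They were picked because 1 member of each was called lower and the other was not called. With chromosome medians removed, Foxo3 (-0.34) and Foxf2 (-0.30) were called lower too. Each run holds the 250 bases before the transcript start in RefSeq (GRCm38.p6), 5′ to 3′ on the strand of the gene. They are chr3:52268087-52268336 (plus strand) for Foxo1, chr10:42276696-42276945 (minus strand) for Foxo3, chr13:31806396-31806645 (plus strand) for Foxc1 and chr13:31625566-31625815 (plus strand) for Foxf2. Capitals mark CCAAT, a common promoter element, in either orientation.
Foxo1: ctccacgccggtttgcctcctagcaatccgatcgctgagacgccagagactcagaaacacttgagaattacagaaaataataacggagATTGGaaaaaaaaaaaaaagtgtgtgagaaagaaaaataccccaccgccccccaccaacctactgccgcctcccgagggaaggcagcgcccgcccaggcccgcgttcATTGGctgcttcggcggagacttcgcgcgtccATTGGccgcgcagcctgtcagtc
Foxo3: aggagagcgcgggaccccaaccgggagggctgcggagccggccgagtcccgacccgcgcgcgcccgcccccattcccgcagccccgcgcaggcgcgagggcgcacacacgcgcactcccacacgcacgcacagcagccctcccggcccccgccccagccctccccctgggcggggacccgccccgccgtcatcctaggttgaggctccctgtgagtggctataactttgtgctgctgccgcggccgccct
Foxc1: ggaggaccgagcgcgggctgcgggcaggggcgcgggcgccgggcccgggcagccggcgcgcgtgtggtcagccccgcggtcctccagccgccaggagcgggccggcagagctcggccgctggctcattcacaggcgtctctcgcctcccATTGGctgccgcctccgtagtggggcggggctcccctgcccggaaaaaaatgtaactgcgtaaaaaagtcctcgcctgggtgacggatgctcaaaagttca
Foxf2: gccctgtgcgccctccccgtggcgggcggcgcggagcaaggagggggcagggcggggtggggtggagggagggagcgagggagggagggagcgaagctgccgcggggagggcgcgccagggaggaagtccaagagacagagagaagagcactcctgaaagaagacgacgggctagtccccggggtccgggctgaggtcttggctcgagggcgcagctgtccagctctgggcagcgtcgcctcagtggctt

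The Foxo1 window held 3 CCAAT matches and the Foxc1 window 1, and none was found in the Foxo3 and Foxf2 windows. These windows and this motif were chosen after the values were seen. Of the 33 windows of forkhead loci 14 held a match, as did 33.85% of all 32851 windows. Matches did not follow the calls throughout: Foxn3, called lower, had none, and Foxp1 and Foxp3, not called, each had a window with 1. The forkhead core motif GTAAACA, searched on both strands, was in none of the 4 windows and in 3.17% of all windows. By GC content the windows were at 56.0% for Foxo1, 76.4% for Foxo3, 70.8% for Foxc1 and 71.6% for Foxf2, where the median of all windows was 52.4%. The CG dinucleotide occurred 20, 31, 29 and 21 times in the same order, against a median of 6 in all windows. RefSeq windows were matched for 28 of the 40 loci, which is too few for a statement on the family.

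Of 4 tested mesenchymal forkheads, Foxc1 and Foxd1 fell, and Foxf2 and Foxd2 were not called. Foxc1, needed for skull, eye and vessel development, had 26.8, 26.1 and 26.7 CPM in WT and 16.9, 17.2 and 16.96 CPM in Yme1l-/-. The cultures of a genotype lay close together and the log2 fold change was -0.64 ± 0.06 (SE, edgeR adjusted p 1.58e-06). Foxd1, a factor of kidney stroma, had 4.62, 4.40 and 3.61 CPM in WT and 2.51, 2.52 and 2.65 CPM in Yme1l-/-, a log2 fold change of -0.72 ± 0.14 (SE, edgeR adjusted p 0.000713). Foxf2, a factor of gut and palate mesenchyme, had 7.37, 8.22 and 6.46 CPM in WT and 6.60, 6.64 and 5.69 CPM in Yme1l-/-. Its cultures overlapped and it was not called, at -0.22 (interval -0.48 to 0.04), although it was called lower without WT replicate 3, at -0.31. Foxd2 had 36 to 69 fragments per library and overlapping cultures, with an interval of -0.58 to 0.31.

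Foxq1, Foxf2 and Foxc1 lie side by side on chromosome 13 between 31556134 and 31812476 (mm10), next to Gmds, which encodes an enzyme of GDP-fucose synthesis. Foxq1 fell by 4.37, Foxc1 by 0.64 and Gmds by 0.41 on the log2 scale, all 3 called, with Foxf2 between them not called. The median of all loci of chromosome 13 was 0.08, and with it removed Foxf2 was called lower too, at -0.30. The difference between Foxf2 and its neighbours was not tested. On chromosome 4, Foxd2 and Foxe3 lie within 500 kb of each other, and Foxe3 had no fragment. Of the other tested loci around this pair, Trabd2b fell by 2.67, Stil by 0.25 and Cmpk1 by 0.24 on the log2 scale, and Foxd2os, transcribed next to Foxd2, was at 0.16 and not called.

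The forkheads with the largest fold changes had few fragments. Foxq1, a factor of hair and other epithelia, had 29, 38 and 29 fragments in WT and 2, 4 and 0 in Yme1l-/-. In sum this was 22.2-fold more in WT at equal depth, with an exact 95% counting interval of 9.81 to 61.9. The fitted log2 fold change was -4.37, and it was -5.18 without Yme1l-/- replicate 2 and -3.73 without Yme1l-/- replicate 3, still called. Foxa2, a pioneer factor of endoderm and floor plate, had 33, 21 and 25 fragments in WT and 1, 3 and 4 in Yme1l-/-, 13.7-fold more in WT (interval 6.61 to 32.8). Foxn1, the factor of thymic and skin epithelium, had 32, 44 and 44 fragments in WT and 19, 17 and 16 in Yme1l-/-, 3.19-fold more in WT (interval 2.29 to 4.51). For these 3 genes no Yme1l-/- culture reached a WT culture, and the edgeR adjusted p was 1.61e-05 for Foxq1, 1.26e-05 for Foxa2 and 0.000331 for Foxn1. Intervals cover counting error only.

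The tested epithelial markers moved in the same direction as these 3 transcripts, as did 7 of the 9 tested fibroblast markers. Over all loci 34.1% were called lower. All 3 tested epithelial markers of the list of 5 were lower in Yme1l-/-: Krt18 went from 31.9 to 0.0262 CPM, Krt19 from 115.4 to 2.66 CPM and Epcam from 1.29 to 0.0848 CPM. Cdh1 and Krt8, also in the list, had at most 15 fragments in any library and were not tested. Their counts overlapped between the genotypes. Cdh1 had 6, 4 and 12 fragments in WT and 7, 2 and 3 in Yme1l-/-, and Krt8 had 5, 9 and 15 in WT and 14, 9 and 4 in Yme1l-/-. The part of these markers in the forkhead values was not tested. An antisense locus over Foxq1, A530084C06Rik, had 13, 12 and 7 fragments in WT and 2, 0 and 0 in Yme1l-/-. The libraries were stranded, but the strand setting of the counting is not given in the sources used here, so these fragments and those of Foxq1 may not be separate.

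Both FOXK transcripts and both widely expressed FOXN transcripts were lower in Yme1l-/-. Foxk2 had 169.0, 162.3 and 165.9 CPM in WT and 113.2, 114.7 and 114.6 CPM in Yme1l-/-, without overlap, a log2 fold change of -0.54 ± 0.04 (SE, edgeR adjusted p 4.98e-07). With chromosome medians removed it was at -0.89, since loci of chromosome 11 had a median of 0.36. Foxk1 fell less, from 98.9 ± 6.44 to 82.4 ± 3.39 CPM (SD, n = 3), at -0.26 ± 0.06 on the log2 scale (SE, edgeR adjusted p 0.00158). Foxn2 fell from 69.2 ± 2.71 to 47.7 ± 2.09 CPM (SD, n = 3), at -0.54 ± 0.05 (SE, edgeR adjusted p 3.3e-06). Foxn3, a repressor linked to the cell cycle checkpoint, had 31.1, 31.1 and 30.8 CPM in WT and 14.7, 19.4 and 17.7 CPM in Yme1l-/-. Its log2 fold change was -0.84 ± 0.09 (SE, edgeR adjusted p 6.32e-06) and became -0.40, still called, with the chromosome 12 median of -0.44 removed.

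Foxp2 and Foxj2 were the forkheads called higher in Yme1l-/-. Foxp2, known for its role in speech and in brain and lung development, had 1, 0 and 3 fragments in WT and 25, 31 and 21 in Yme1l-/-. In sum this was 13.9-fold more in Yme1l-/- (exact 95% counting interval 5.21 to 52.3), with an edgeR adjusted p of 0.000231, where the Yme1l-/- level was 0.580 ± 0.154 CPM (SD, n = 3). The fitted log2 fold change was 3.71, and 4.97 without WT replicate 3, which held 3 of the 4 WT fragments. Foxj2, a broadly expressed activator, had 42.0, 41.2 and 44.5 CPM in WT and 49.6, 53.8 and 50.7 CPM in Yme1l-/-, a log2 fold change of 0.27 ± 0.05 (SE, edgeR adjusted p 0.000741). The loci of chromosome 6, where Foxj2 lies, had a median of 0.34, and with that median removed Foxj2 was at -0.07 and was no longer called (edgeR adjusted p 0.27).

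The remaining FOXP and FOXJ transcripts were not called. Foxp4, of lung and gut epithelium, was at 77.6 ± 1.88 CPM in the WT cultures and 76.8 ± 3.96 CPM in the Yme1l-/- cultures (SD, n = 3), with an interval of the log2 fold change of -0.13 to 0.10. Foxp1 was counted in one locus with Eif4e3 and Gm20696, at 152.0 ± 6.53 and 154.2 ± 5.16 CPM (SD, n = 3), and its fragments cannot be divided among these genes. With chromosome medians removed both were called lower, Foxp4 at -0.18 and the Foxp1 locus at -0.32. Foxj3 was at 70.6 ± 1.94 and 68.2 ± 2.204 CPM (SD, n = 3), with an interval of -0.15 to 0.05. Foxj1, the factor of motile cilia, had 13 to 39 fragments per library and an interval of -0.53 to 0.79. The Foxp3 locus had 7 to 21 fragments per library and an interval of -0.59 to 0.98. For the last 2 a fall of the size seen for Foxk1 was not detectable at this depth.

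**Figure D2:**
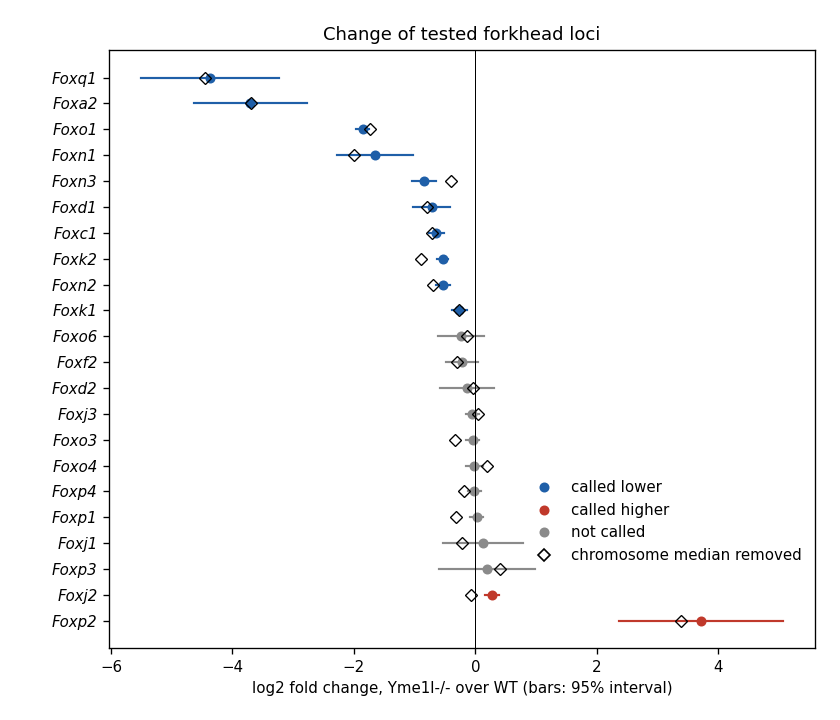
Log2 fold change (Yme1l-/- over WT) of 22 tested forkhead loci with 95% intervals, coloured by call, and open diamonds for the value after removal of the median of the chromosome. The lower calls reach from -4.37 to -0.26, and the diamond of Foxj2 lies at -0.07.

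The balance within pairs of relatives was compared in each library, where library scaling has no part. Of the fragments of Foxo1 and Foxo3 together, Foxo1 took 63.9, 62.3 and 64.4% in the WT cultures and 33.4, 32.6 and 33.6% in the Yme1l-/- cultures. The share thus differed by -30.4 percentage points. Foxk1 took 37.4 ± 1.45% of the FOXK fragments in WT and 41.9 ± 0.834% in Yme1l-/-, Foxn2 took 69.0 ± 0.754% and 73.5 ± 1.90% of those of Foxn2 and Foxn3, and Foxj2 took 37.6 ± 0.934% and 42.96 ± 0.854% of those of Foxj2 and Foxj3 (SD, n = 3). In 5 of the 6 pairs examined the cultures of the genotypes did not overlap, and the exact permutation test (two-sided) gave p = 0.1, the smallest that 3 cultures against 3 allow, with an adjusted p of 0.12 over the 6 pairs. The pair of Foxo3 and Foxo4 overlapped, at 67.0 ± 0.487% and 66.6 ± 1.50% (SD, n = 3; exact p = 0.7). For single loci, 71.9% of all those tested did not overlap. The shares do not take the chromosomes into account. With chromosome medians removed Foxn2 was at -0.70 and Foxn3 at -0.40, and Foxj2 was at -0.070 and Foxj3 at 0.048, which turns the direction between the members of both pairs. In the same fit Foxo3, at -0.34, and Foxo4, at 0.19, parted.

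**Figure D3:**
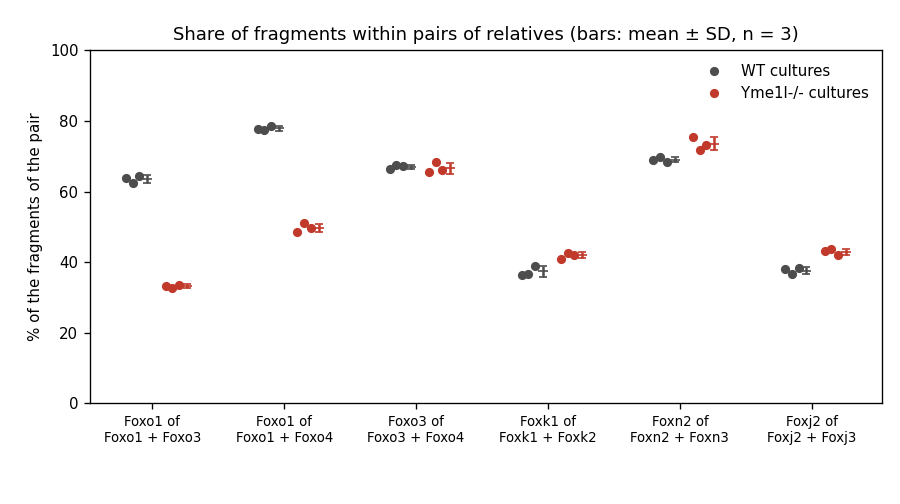
Share of fragments taken by the first gene of each pair of relatives in the 3 WT and the 3 Yme1l-/- cultures, with mean ± SD. The share of Foxo1 beside Foxo3 is 62.3 to 64.4% in WT and 32.6 to 33.6% in Yme1l-/-, while that of Foxo3 beside Foxo4 overlaps.

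Levels were ordered among the 21 tested loci that were not merged, as CPM per kilobase of merged exons. In WT the order began with Foxk2 at 31.5 ± 0.639, Foxp4 at 15.8 ± 0.382, Foxk1 at 13.0 ± 0.849, Foxn2 at 9.40 ± 0.369 and Foxo1 at 8.70 ± 0.295 (SD, n = 3), and the cultures of neighbours among these did not overlap. In Yme1l-/- it began with Foxk2 at 21.7 ± 0.159, Foxp4 at 15.6 ± 0.804, Foxk1 at 10.9 ± 0.446, Foxj2 at 9.61 ± 0.405 and Foxn2 at 6.48 ± 0.284 (SD, n = 3). There Foxn2 overlapped Foxj3, the next in the order. Foxo1 was at rank 5 in WT and 11 in Yme1l-/-. By the FPKM deposited by the authors Foxo1 was at rank 7 and 12. By the same measure Foxj3 was at rank 3 in both genotypes, in place of 7 and 6, and Foxn3 at 6 in WT, in place of 12.

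A further 8 loci had fragments but too few to be tested. Foxa3 had 2 to 8 fragments per library. Foxh1, a partner of SMAD2 in Nodal signalling, had 1, 0 and 1 fragments in WT and 7, 2 and 6 in Yme1l-/-. Foxa1 and Foxs1 had at most 3 fragments in any library, Foxl2 at most 1, and Foxn4, Foxr2 and Foxb1 each had 1 fragment in all 6 libraries together. No fragment was counted for Foxb2, Foxd3, Foxd4, Foxe1, Foxe3, Foxi1, Foxi2, Foxi3 and Foxr1, which at 3 counts allows up to 0.0919 CPM in the library where these weigh most.

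The genes around the FOXO factors were taken next. Of 22 tested genes of insulin and PI3K-AKT control, 7 were higher, 7 were lower and 8 were not called, with a median log2 fold change of 0.02. The share called, 63.6%, was near the 67.7% of all loci. Akt1, which encodes a kinase that inhibits FOXO factors, was lower (474.8 to 284.8 CPM, -0.74 ± 0.05). Irs1, an adaptor of the insulin receptor (30.1 to 63.8 CPM, 1.09 ± 0.06), and Sgk3, a kinase related to AKT (4.11 to 8.03 CPM, 0.97 ± 0.12, log2 fold change ± SE), were highest. The number of higher calls in this list was 11 under upper-quartile scaling.

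FOXO target genes went both ways. Of 23 tested, 9 were higher and 8 were lower (39.1% and 34.8%, near the 33.6% and 34.1% of all loci), with a median of 0.05. Pdk4, whose product restrains pyruvate dehydrogenase, rose from 1.09 ± 0.517 to 22.8 ± 0.704 CPM (SD, n = 3), at 4.39 ± 0.21 (SE), and Fbxo32, which encodes a ubiquitin ligase of muscle atrophy, rose from 2.44 to 7.57 CPM, at 1.64 ± 0.15 (SE). The lowest were Klf2 (-0.86 ± 0.18) and Klf6 (-0.77 ± 0.05, log2 fold change ± SE), which encode zinc finger factors. The targets of the list are shared with other regulators. Insr and Irs2, both called lower, stand in this list and in the insulin and PI3K-AKT list, so the counts of the lists share these genes.

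In the Hedgehog pathway, which controls mesenchymal forkheads in the embryo, 5 of 12 tested genes were higher and 4 were lower (41.7% and 33.3%, beside 33.6% and 34.1% of all loci), with a median of 0.24. The co-receptor gene Boc rose from 1.40 to 12.8 CPM (3.19 ± 0.11) and Kif7, which encodes a ciliary regulator of GLI factors, from 7.10 to 22.1 CPM (1.64 ± 0.13). The ligand gene Dhh went from 0.507 to 0.0621 CPM (-2.89 ± 0.47) and Gli2 from 14.1 to 10.3 CPM (-0.46 ± 0.09, log2 fold change ± SE). Among 25 genes of forkhead cofactors, 16 were lower and 5 were higher (64% and 20%, beside 34.1% and 33.6% of all loci), with a median of -0.36. With chromosome medians removed 13 were called lower and 3 higher. The corepressor genes Tle3 (-1.25 ± 0.05) and Tle1 (-0.82 ± 0.07) were lowest, and Dvl2 (0.66 ± 0.05), whose product binds FOXK proteins, and Tle2 (0.58 ± 0.17, log2 fold change ± SE) were highest.

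**Figure D4:**
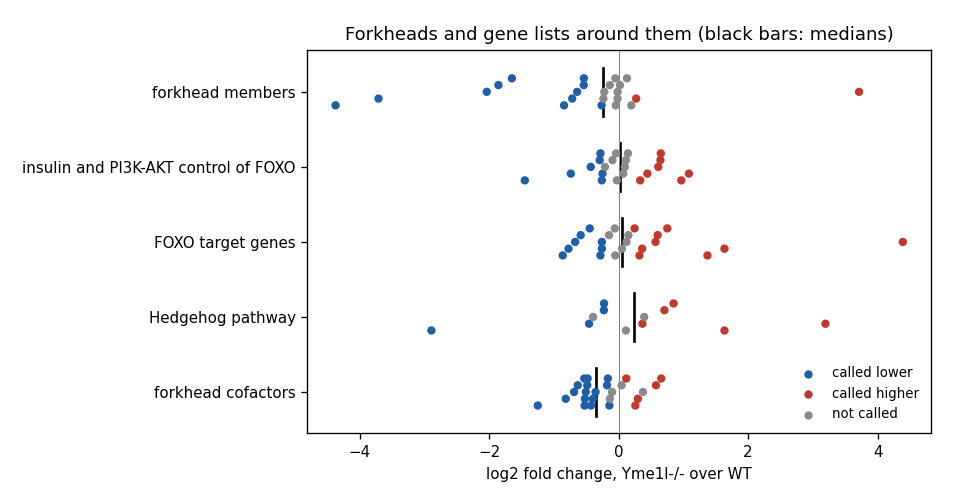
Log2 fold changes (Yme1l-/- over WT) of the tested forkheads and of the genes of the 4 lists, 1 point per locus coloured by call, with black bars at the medians. The medians are -0.23 for forkheads, 0.02 for insulin and PI3K-AKT genes, 0.05 for FOXO targets, 0.24 for the Hedgehog pathway and -0.36 for cofactors.

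For other families of developmental factors the calls were as follows. All 9 tested loci of the SOX family were called, 3 higher and 6 lower, with a median size of change of 4.31, and all 6 of the T-box family, 5 higher and 1 lower, with a median size of 1.78 (log2). Among the forkheads 13 of 23 were called and the median size was 0.27. These counts are descriptions and the difference between families was not tested.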

How the data were processed

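Poly(A)-selected RNA of 3 WT and 3 Yme1l-/- cultures was sequenced from stranded libraries. Read pairs were mapped by the authors to mm10 (GRCm38) with HISAT2 2.0.4, transcripts were assembled with StringTie 1.3.3 and genotypes were compared with Cuffdiff 2.2.1, per the submitters' processing notes. The authors deposited raw fragment counts for each assembled locus, in which overlapping genes are merged, and the FPKM deposited by the authors is 1 value per genotype. How the counts were made is not given in the sources used here. The authors' columns of fold changes, p-values and q-values were not used. Coordinates are those of the deposited loci, counted from 1.

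The tools were R 4.3.3 and edgeR 4.0.16. Loci were kept with filterByExpr (minimum count 10), scaled with TMM factors and compared with glmQLFit (robust) and glmQLFTest, two-sided, without covariates, and p-values were adjusted by Benjamini-Hochberg over every tested locus. A standard error (SE) is the log2 fold change divided by the root of the test statistic. Levels per kilobase used merged exons of GENCODE M21 (GRCm38). Alternatives were RLE or upper-quartile scaling, DESeq2 1.42.0, other filters, the replicate number as a block, omission of each culture, chromosome medians removed and libraries thinned to the smallest total. The authors' FPKM as a measure of order, and the promoters and the CCAAT motif shown, were chosen after seeing the data.

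The members and lists were chosen with earlier results of these data known. The 4 gene lists, each used with calls over all loci, were written from general knowledge. The rule named all forkheads with a fragment, and in each list the 2 highest and the 2 lowest calls without overlap of the genotypes, of which some results are not reported here, though the counts include them. P-values measure the spread between cultures of a genotype, which may be technical. Counting intervals cover counting error only, since PCR copies were not identified. Same-numbered cultures did not deviate together from their genotype means (correlations 0.14, -0.094 and 0.048), so the numbers were not used as pairs.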

Additional observations from a re-analysis of the deposited data

How the results depend on the processing

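The 13 forkhead calls were shared, in direction too, by RLE and upper-quartile scaling, DESeq2, no filter beyond a total of 1 count, the thinned libraries and each of the 6 fits without 1 culture, where Foxf2 was called too without WT replicate 3. With the replicate number as a block 13 forkheads and 9794 loci were called, and no forkhead call changed. With at least 10 counts in every sample, Foxq1, Foxa2 and Foxp2 were not tested, so 10 forkheads were called, 9 lower and 1 higher. With chromosome medians removed 17 were called, of which 12 were among the 13. Foxj2, at -0.070, was lost, and Foxf2 (-0.30), Foxo3 (-0.34), Foxp4 (-0.18) and Foxp1 (-0.32) were called lower and Foxo4 (0.19) higher.

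In that fit Foxj3 was at 0.048 and Foxj1 at -0.23, neither called, and 3 cofactors were called higher. Under upper-quartile scaling, where 11 insulin and PI3K-AKT genes were called higher, Foxj3 was at 0.0093, Foxo3 at 0.016, Foxo4 at 0.043 and Foxp4 at 0.044, none called, and in the thinned libraries Foxo4 was at 0.0023. Without a culture in turn, uncalled values ranged around 0: Foxo4 from -0.043 to 0.029, Foxp4 from -0.052 to 0.025, Foxp1 from -0.0022 to 0.055, Foxj1 from -0.12 to 0.38, Foxp3 from -0.011 to 0.35, and the share of Foxo3 beside Foxo4 from -1.27 to 0.16 percentage points. The cause of these moves was not tested. Depth limits loci of about 1 CPM or less, where a few fragments set the fold.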
